A study of Mus musculus with 2 samples.

Results

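The Mir378 family genes Mir378a, Mir378b, Mir378c and Mir378d were described in the mouse adrenal gland, together with Gm25301, a predicted miRNA gene that covers Mir378a on the other strand. These 5 genes were picked by symbol from the 2202 miRNA genes of the deposited tables, with the counts of both libraries already known, so their levels are descriptions and carry no test. Small RNA was sequenced from adrenal glands of female B6CASTF1/J mice aged 14 days, an F1 cross of C57BL/6J and CAST/EiJ. There was 1 group of 2 libraries, numbered by the labels as biological replicates, and no treatment or genotype was compared. The label of replicate 1 names 3 females, which may be a pool, and that of replicate 2 names 1 female. Both libraries carry the same donor identifier, so the spread between them may not be a spread between animals.

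Mir378a lies inside Ppargc1b, the gene for the coactivator PGC-1β, which drives mitochondrial and lipid-oxidation genes together with estrogen-related receptors. As an intronic miRNA it can be cut from the same transcript as its host. Its main product, miR-378a-3p, is known from muscle, heart, liver and brown fat, where it acts on energy metabolism, with carnitine acetyltransferase among its described targets. The opposite arm, miR-378a-5p, is known to act on estrogen-related receptor gamma. A miRNA recognises messages mainly through its seed, bases 2 to 8 from its 5′ end.

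The mature sequences of the other family genes show how alike the members are and where their seeds differ. They were taken from RefSeq on build GRCm38.p6, where 3 of the 5 members matched, each at the same coordinates as in the annotation of the tables. Mir378a and Gm25301 had no entry there. Capitals mark the seed.
miR-378b: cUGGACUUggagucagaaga
miR-378c: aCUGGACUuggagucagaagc
miR-378d: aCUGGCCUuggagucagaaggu
All 3 hold the run cuuggagucagaag of 14 bases, which no other of the 1738 mature entries in the table held. Whether the products of Mir378a hold it could not be read there. Relative to miR-378c, counted from 1 at its 5′ end, miR-378d differs by A6C and C21G over 21 bases. The first of these lies in the seed. Aligned from base 2 of miR-378c, miR-378b differs by C21A over 20 bases. The annotated start of miR-378b is thus 1 base further in, which moves its seed by 1 base. The 3 seeds are therefore all different, and no other mature entry in the table has any of them at bases 2 to 8. Since Mir378a is missing from the table, its seeds could not be compared with these.

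The hairpins differ more than the products cut from them. They are shown with the mature part in capitals, to give its side of the hairpin.
Mir378b: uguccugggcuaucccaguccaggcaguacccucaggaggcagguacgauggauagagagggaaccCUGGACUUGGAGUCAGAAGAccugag
Mir378c: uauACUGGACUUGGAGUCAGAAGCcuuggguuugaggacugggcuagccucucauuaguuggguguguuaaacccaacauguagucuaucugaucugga
Mir378d: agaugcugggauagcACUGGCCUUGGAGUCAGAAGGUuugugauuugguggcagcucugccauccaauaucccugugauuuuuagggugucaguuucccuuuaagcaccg
The mature part of Mir378b lies on the 3′ side, at bases 67 to 86 of 92. That of Mir378c lies on the 5′ side, at bases 4 to 24 of 99, and that of Mir378d also on the 5′ side, at bases 16 to 37 of 110. The longest run shared between hairpins was 19 bases for Mir378b and Mir378c and 14 bases for either with Mir378d. These runs lay within the mature parts. RNAfold gave folding energies of -33.8, -27.3 and -31.8 kcal/mol per 100 bases for Mir378b, Mir378c and Mir378d. The median of the 997 hairpins folded from the table was -40.7, with quartiles of -46.5 and -34.2. Ordered from the most stable, the 3 stood at places 758, 929 and 826. All 3 were thus predicted to fold less stably than 3 in 4 of the hairpins.

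The libraries held 3797107 and 5034257 counts on the strand of the miRNA genes, 35.4% and 45.0% of the reads in replicates 1 and 2. Another 3002371 and 2795730 reads mapped to several places and were not counted for any gene. The libraries also differed in miRNAs of other tissues. The list of hepatocyte markers, of which 4 of 5 matched a gene, summed to 0.300% of counts in replicate 1 and 21.6% in replicate 2, nearly all from Mir122. Its 3 detected genes, Mir122, Mir192 and Mir194-2, were all past 2-fold higher in replicate 2, and none of the 4 was at 0. Of all 261 genes averaging 100 counts or more, 17.2% were past 2-fold in either direction. Detected means at least 10 counts in each library, which 16.3% of all 2202 miRNA genes reached. The 9 muscle markers summed to 0.00313% and 0.157%, mostly from Mir206. Only Mir206 and Mir499 of them were detected, and Mir1a-1, Mir133a-1 and Mir133a-2 were at 0 in both libraries. Markers of the neuroendocrine medulla, the tissue's own, summed to 3.90% and 2.02%, led by Mir375. Of these 10 markers 4 were detected, and Mir9-2 and the 3 Mir124a genes were at 0 in both. Reads of near-identical gene copies can map to several places and go uncounted. Counts of 0 for muscle or medulla markers thus do not show that their products were absent. The tables hold miRNA genes alone, so the messages that define steroid-producing cells could not be read. In whole glands, fewer cells of a type and less RNA per cell cannot be told apart.

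By counted reads, Mir378a was one of the most abundant miRNA genes in both libraries and held nearly all counts of its family. It had 294709 counts in replicate 1 and 328406 in replicate 2. As CPM, counts scaled to a common total of miRNA counts, these were 77614 and 65234. In replicate 1 it took 7.76% of counts, with a Wilson 95% interval of 7.73 to 7.79. In replicate 2 it took 6.52%, with an interval of 6.50 to 6.55. Mir378a thus ranked 3 in replicate 1 and 4 in replicate 2 by counted reads. Genes with near-identical copies can lose reads that map to several places. These ranks may therefore not hold for the RNA itself. Intervals here cover counting error only, not further spread between libraries. Use of molecular identifiers could not be read from the counts. With Mir122 left out of the totals, the shares of Mir378a were 7.78% and 8.31%, so the order of the libraries turned. Mir378a is itself known from liver and muscle, the tissues whose marker miRNAs were higher in replicate 2, and the part of such tissue in its level was not tested.

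Mir378c came next in the family. It had 272 and 253 counts, or 71.6 and 50.3 CPM. Mir378d had 112 and 103 counts, or 29.5 and 20.5 CPM. Mir378b had 14 and 9 counts, or 3.69 and 1.79 CPM. The order Mir378a, Mir378c, Mir378d, Mir378b held in both libraries, and no neighbours in it overlapped between libraries. Mean levels were 71424 ± 8754 CPM for Mir378a, 60.9 ± 15.1 for Mir378c, 24.98 ± 6.39 for Mir378d and 2.74 ± 1.34 for Mir378b (SD, n = 2). A minimum of 10 counts in each library was met by Mir378a, Mir378c and Mir378d, 3 of the 5 members, and by 16.3% of all miRNA genes. Nothing is read from that share, since the same counts served to pick the members.

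Gm25301 had 1 count on its own strand in replicate 1 and 0 in replicate 2. The single count gives a share with a Wilson 95% interval that reaches 0.000149% of counts. The count of 0 in replicate 2 allows up to 3 counts, or 0.596 CPM. Small RNA from the strand of Gm25301 above these levels was not seen.

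**Figure D1:**
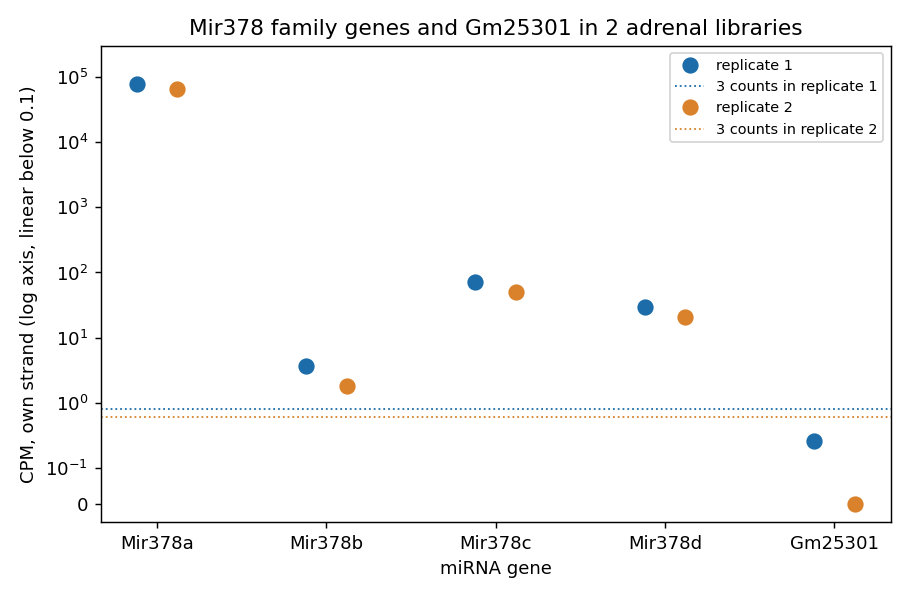
Level of each Mir378 family gene and of Gm25301 in CPM on the gene's own strand, on a log axis that is linear below 0.1, with 1 point per library. Dotted lines give the level of 3 counts in each library. Mir378a stands at 77614 and 65234 CPM, Mir378c, Mir378d and Mir378b follow in that order in both libraries, and Gm25301 lies under the dotted lines.

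Counts of Mir378a exceeded those of Mir378c 1083-fold in replicate 1 (exact 95% counting interval 962 to 1225) and 1298-fold in replicate 2 (1148 to 1474). They exceeded those of Mir378d 2631-fold (2187 to 3196) and 3188-fold (2629 to 3906). Of all family counts, 99.87% in replicate 1 and 99.89% in replicate 2 came from Mir378a. Among the remaining 398 and 365 counts, Mir378c held 68.3% (Wilson 95% interval 63.6 to 72.7) and 69.3% (64.4 to 73.8). Mir378d held 28.1% (23.9 to 32.8) and 28.2% (23.8 to 33.0) of them. The division among the minor genes thus differed between the libraries by less than counting error. Reads of near-identical family products can map to several places and are then left out. Over the whole libraries, reads of any sequence left out this way were 10.2 and 8.51 times the counts of Mir378a. How many of them came from the family was not known. The counts of all 4 family genes, and the ratios between them, are uncertain for that reason.

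The family genes lie in different settings of the genome (build mm10). Mir378a, identified as ENSMUSG00000105200.1, spans bases 61397835 to 61397900 of chromosome 18. It is read from the minus strand, as is Ppargc1b (ENSMUSG00000033871.14, chromosome 18 from 61298136 to 61400431). It is in intron 1 of each of the 3 transcripts that span it. It begins 2531 bases from the 5′ end of a host of 102 kb, and 2389 bases lie between it and exon 1. The intron measures 17.8 kb in one protein-coding transcript and 77.0 kb in the other. Mir378a is the only one of the 4 family genes that lies in the direction of a protein-coding host gene. Introns of same-strand non-coding genes were not checked for Mir378b and Mir378c.

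Mir378b (ENSMUSG00000092985.1, chromosome 11 from 88352773 to 88352864, plus strand) lies in an intron of Msi2, against the direction of that gene for an RNA-binding protein of stem and progenitor cells. Mir378c (ENSMUSG00000099036.1, chromosome 14 from 46954830 to 46954928, minus strand) lies in an intron of Samd4, again against its host, which encodes a regulator of message translation. Mir378d (ENSMUSG00000098756.1, chromosome 10 from 126710282 to 126710391, minus strand) overlaps no annotated gene. None of the 3 minor genes had a count in the opposite-strand column, and their unstranded counts equalled those on their own strand.

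**Figure D2:**
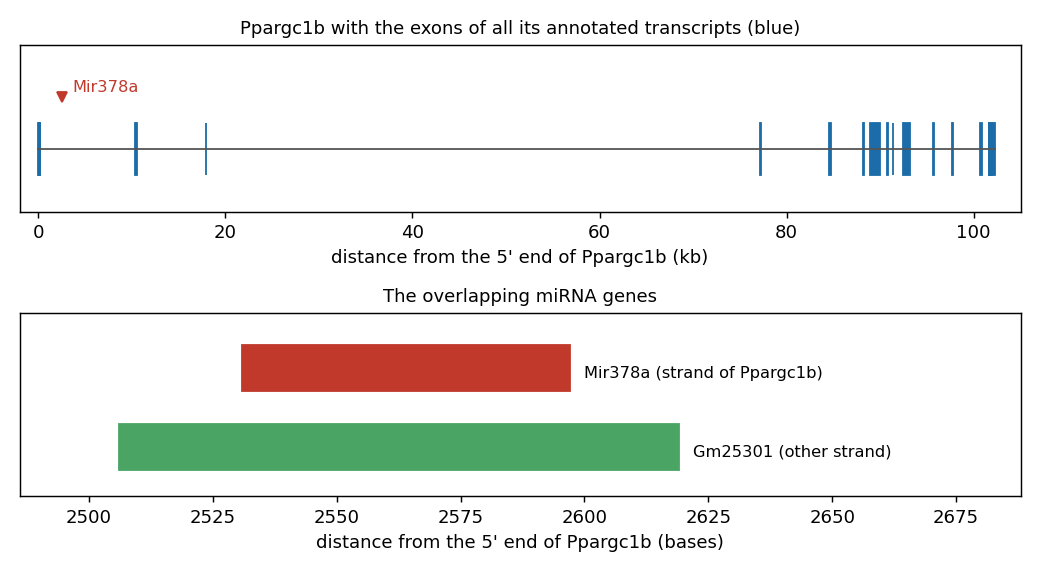
Map of Ppargc1b by distance from its 5′ end, in kb above and in bases below. Blue bars are the exons of all annotated transcripts. Mir378a begins 2531 bases into the gene, and Gm25301 on the other strand covers it whole and extends past it on both sides.

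Gm25301 (ENSMUSG00000093026.1, chromosome 18 from 61397813 to 61397925, plus strand) spans 113 bases and covers all 66 bases of Mir378a, with 22 and 25 further bases at the ends. Each table has 3 count columns, read as unstranded, own strand and opposite strand. Mir378a had 0 unstranded counts in both libraries, against 294709 and 328406 on its own strand. The opposite-strand column of Gm25301 held 294710 counts in replicate 1 and 328406 in replicate 2. The first of these exceeds the own-strand count of Mir378a by 1, and the second equals it. The bases of Gm25301 outside Mir378a thus added at most 1 read on the Mir378a strand. In replicate 1, own-strand counts of Mir378a were 294709-fold those of Gm25301, with an exact 95% counting interval of 52894 to 11640423. In replicate 2 they were at least 109469-fold higher, taking 3 counts per library as the limit for Gm25301.

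Mir378a shared this arrangement with other miRNA genes. The annotation holds 32 pairs of overlapping miRNA genes on opposite strands, of which 23 had at least 100 own-strand counts of the stronger gene over both libraries. Mir378a held 30.7% of the own-strand counts of these 23 pairs in replicate 1 and 28.3% in replicate 2. Its counts also equalled 30.7% and 28.3% of the 959702 and 1162285 reads set aside as ambiguous in the unstranded counting. Only Mir126a, a gene of endothelium, had more, with 540202 and 707963 counts. Mir30e followed with 35663 and 35284, Mirlet7e with 29318 and 33609 and Mir191 with 26372 and 27801.

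In the unstranded column, 19 of the 23 stronger genes, Mir378a among them, had 0 counts in both libraries, and none kept more than 1.26% of its own-strand counts. The weaker gene of the pair was at 0 in both libraries in 12 of the 23 pairs, and had at least 10 counts in each library in 4. Mir126b, partner of Mir126a, had 30 and 23. In 8 of the 23 pairs the weaker gene was, like Gm25301, a predicted gene with a Gm name, and 6 of those 8 had 0 counts on their own strand in both libraries. The count of 1 for Gm25301 in 1 library stands between these groups. Any total made from the unstranded column leaves Mir378a out, and with it the leading family gene.

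**Figure D3:**
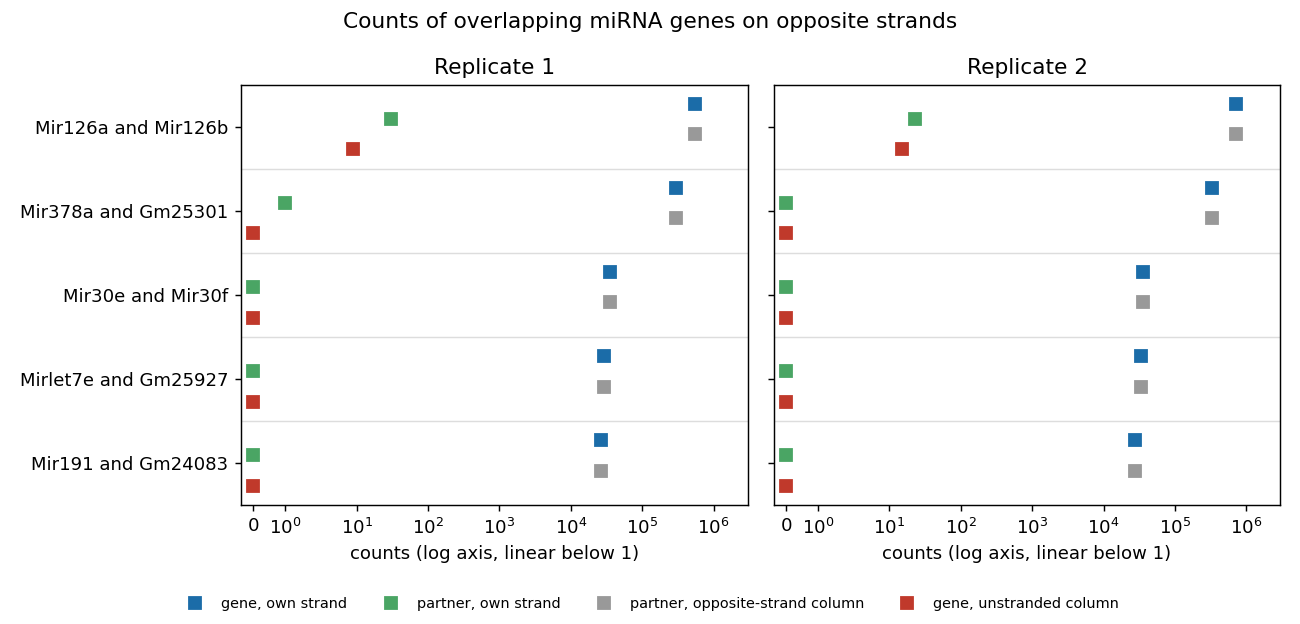
Counts of the 5 overlapping pairs with the most own-strand counts, by library, on a log axis that is linear below 1. For Mir378a and Gm25301, the own-strand count of Mir378a and the opposite-strand count of Gm25301 coincide near 294709 and 328406, while the unstranded count of Mir378a is 0.

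The libraries differed little in the family genes once the totals were rescaled. Log2 ratios of replicate 2 over replicate 1 were taken with TMM scaling, which sets the bulk of detected genes equal. The ratio of Mir378a was 0.18 (exact 95% counting interval 0.17 to 0.19). Mir378c stood at -0.08 (-0.33 to 0.17), Mir378d at -0.10 (-0.50 to 0.30) and Mir378b at -0.59 (-2.004 to 0.70). The intervals of the 3 minor genes include 0, and that of Mir378a lies just above it. Under plain library totals the ratio of Mir378a was -0.25, so its sign depends on the scaling.

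Of 261 genes averaging 100 counts or more, 17.2% were past 2-fold between the libraries, and none of the 3 members in that range did. Over these 261 genes the median ratio was -0.02 and the median size of a ratio 0.44. The ratio of Mir378a was at or above that of 57 of the 261 in size. Mir122 and Mir206 stood at 6.64 and 6.22.

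**Figure D4:**
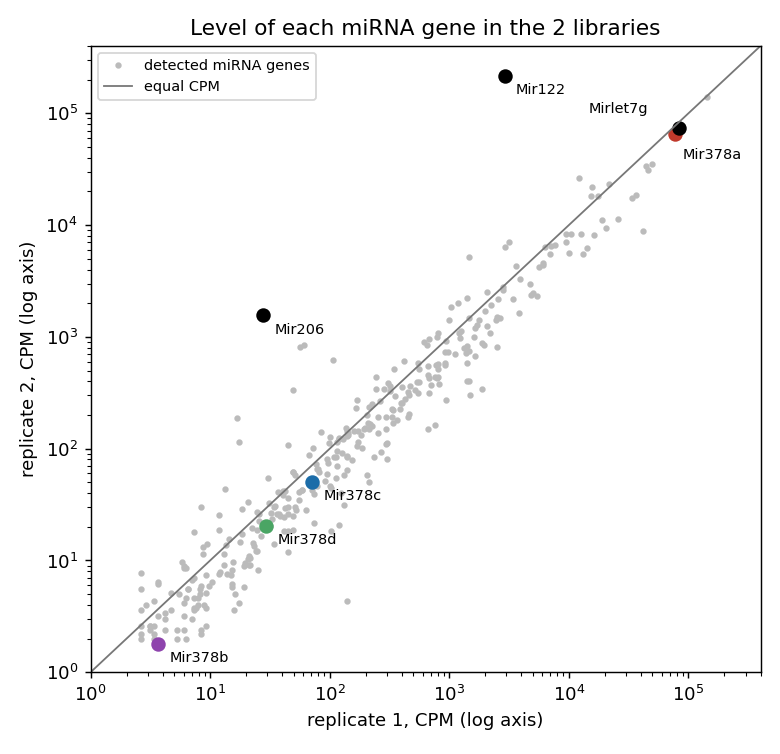
CPM of each miRNA gene in replicate 1 and replicate 2, on log axes, with grey points for genes with at least 10 counts in each library and a line of equal CPM. Mir378a, Mir378c and Mir378d lie just under the line and Mir378b, below that minimum in replicate 2, lies further under it, while Mir122 and Mir206 lie far above it.

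The genes whose levels were nearest to Mir378a were ranked by their distance in log2 of CPM plus 1 over the 2 libraries. Mirlet7g, a member of the growth-restraining let-7 family, was nearest at 0.22, with 317839 and 373549 counts. Mirlet7i, Mirlet7b and Mir143 followed at 1.11, 1.25 and 1.33. Mir143, a gene of smooth muscle, is also a neighbour on chromosome 18, where it lies 251 kb from Mir378a on the same strand. By mean level Mir378a stood at place 4, under Mir122 and Mirlet7g and above Mirlet7i and Mirlet7b. The place of Mir122 rests on replicate 2, where it ranked 1 with 214538 CPM. In replicate 1 it ranked 43 with 2896 CPM, far below Mir378a. Mirlet7g and Mir378a, at 78953 ± 6720 and 71424 ± 8754 CPM (SD, n = 2), had ranges that overlapped, with Mirlet7g the higher of them within each library. Mirlet7i, at 42195 ± 10193 CPM, was below Mir378a within each library, and its range did not overlap that of Mir378a.

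Around Mir378a, 6 other miRNA genes start within 500 kb. Of these, Mir143 had 172486 and 155135 counts and its neighbour Mir145a 3890 and 9245. The ratio of Mir145a, replicate 2 over replicate 1, was 1.27, against -0.13 for Mir143 and 0.18 for Mir378a. The other 4, Gm25301 included, had at most 4 counts in either library.

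Mir378a stood out among the miRNA genes set in introns of same-strand protein-coding genes. There were 701 such genes, of which 107, or 15.3%, were detected, against 16.3% of all miRNA genes. The 701 genes held 33.4% and 29.2% of all counts. Mir378a alone made up 23.2% and 22.3% of that share, second to Mirlet7g, which lies in Wdr82. Mir26b in Ctdsp1 came next at 22487 ± 1112 CPM (SD, n = 2), so that the mean CPM of Mir378a was 3.18 times as high. Among the 107 detected genes, Mir378a was the eighth nearest to the 5′ end of its host, and the median distance was 42847 bases. Another 195 genes lay in introns against the direction of a protein-coding gene, as Mir378b, Mir378c and Gm25301 do. Of these 15, or 7.69%, were detected. Mir378c ranked 4 and Mir378b 16 among the 195 by mean CPM.

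**Figure D5:**
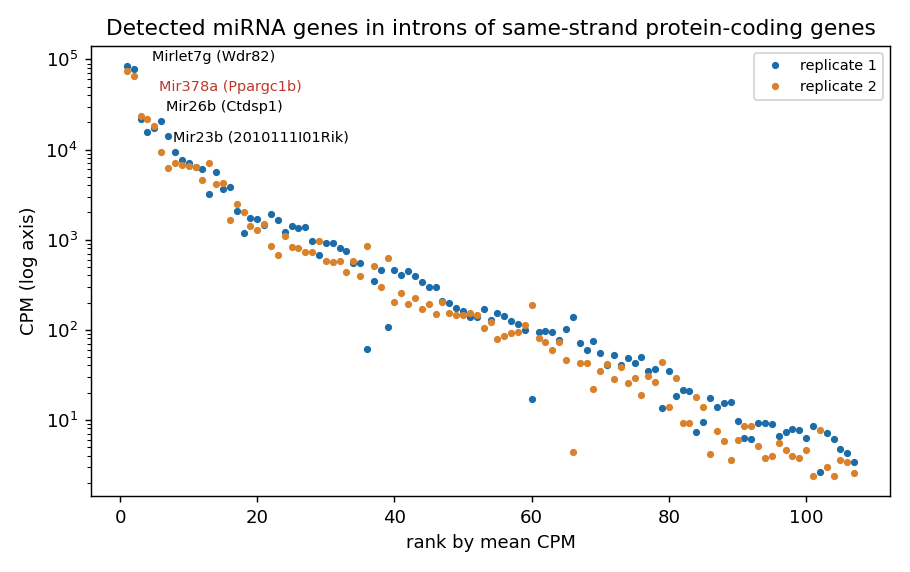
CPM by library, on a log axis, of the 107 detected miRNA genes in introns of same-strand protein-coding genes, ordered by mean CPM, with the 4 most abundant and their host genes named. Mirlet7g and Mir378a lead, and the next gene, Mir26b, stands at 22487 CPM on the mean.

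Other listed miRNA genes tied to metabolism had fewer counts than Mir378a. A list of 12 genes drawn up for introns of metabolic hosts was used, of which 11 lie in a same-strand intron and Mir148a between genes. The name of the list is loose, since its hosts include the slow myosin gene Myh7 and the growth-factor gene Igf2. In the list 10 were detected, against 16.3% of all miRNA genes. Among 7 averaging 100 counts or more, 1 was past 2-fold higher in replicate 2 and 0 lower, against 17.2% of all 261 such genes. The median log2 ratio of the 7 was 0.18. The gene past 2-fold was Mir483, in the growth-factor gene Igf2, at 4.24, and it was named after its value had been seen. Behind Mir378a came Mir26b and Mir335, an intronic gene of the imprinted Mest, at 10216 ± 5652 CPM. Mir107, in the pantothenate kinase gene Pank1, had 14525 and 8277 counts. Mir33, in the sterol regulator Srebf2, had 53 and 38. The numbered copies Mir103-1 and Mir103-2 had 16 and 17 and 131 and 70 counts. Reads of such copies can map to several places and be missing from these counts.

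Genes linked to brown fat were also measured, since Mir378a is known there. All 16 were detected, against 16.3% of all miRNA genes, and together they held 1.10% and 0.841% of counts. Of 13 averaging 100 counts or more, 1 was past 2-fold higher in replicate 2 and 1 lower, against 17.2% of all 261 such genes. The median log2 ratio of the 13 was 0.12. The genes past 2-fold were Mir193a at 1.14 and Mir30b at -1.01, named after their values had been seen. Mir27b led with 4757 and 2948 CPM, followed by Mir455 with 1449 and 1481 and Mir203 with 1465 and 749. The counted sum of the 16 genes was thus well under the count of Mir378a alone in either library. Some of the 16 are numbered copies, such as Mir30c-1 and Mir30c-2, whose reads can map to several places and be missing from that sum. Of 5 genes linked to muscle mitochondria, 4 matched and 3 were detected, Mir378a among them, against 16.3% of all miRNA genes. Mir378a and Mir494, with 651 and 573 counts, averaged 100 counts or more and stayed within 2-fold, with a median log2 ratio of 0.01. Of all 261 such genes, 17.2% were past 2-fold. Mir499 had 10 and 39 counts, a log2 ratio of 1.93. Mir208b, carried by the slow myosin gene Myh7, had 3 and 32.

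Among the minor genes, levels nearest to Mir378c were those of Mir679, Mir138-1, Mir877 and Mir26a-2, at distances of 0.08 to 0.34. Those nearest to Mir378d were Mir760, Mir294, Mir331 and Mir202, at 0.10 to 0.27. Each ranking compares 1 pair of values per gene, so it orders genes mainly by level.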

How the data were processed

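Each library has its own table of whole-number counts, deposited by the authors in 3 columns without a header. The 4 summary lines at the top were kept out of the totals. A text file deposited with each table names build mm10 and annotation M21. Aligner, counter and trimming: not given in the sources used here. All 2202 identifiers were found in GENCODE M21, which gave symbol, position and host. The columns were read from their values. The strand column with more miRNA counts in both libraries was taken as the own strand. It held 3797107 and 5034257 counts, against 960065 and 1162544 in the opposite-strand column.

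CPM, shares and Wilson 95% intervals came from own-strand counts. Log2 ratios used a prior count of 0.5 and TMM factors of 1.16 and 0.862 from genes with at least 10 counts in each library, with exact Clopper-Pearson intervals. No test between conditions applied. The counts differed beyond counting error (chi-square 1230156.2 on 422 degrees of freedom), so the tables are not 1 library deposited again. This does not show that the samples are separate animals. On simulated counts, 96.6% of the ratio intervals of 261 genes held the true value. The simulation held counting error alone and used plain totals. It therefore does not cover the TMM scaling or further spread between libraries. The members, lists and alternatives were chosen with earlier results of these data known. Named genes were all members, the 4 genes nearest in level to Mir378a, its neighbours in rank and within 500 kb, the 5 overlapping pairs with the most counts and the 3 most abundant genes of each list. Mir696 and Mir885 matched no symbol. The clause of the rule on genes that share the miR-378a seed was not applied. Other genes, among them Mir107, Mir33, Mir208b and those nearest to Mir378c and Mir378d, were chosen with their values known. TMM factors came from edgeR 4.0.16 and other size factors from DESeq2 1.42.0, in R 4.3.3. Hairpins were folded with RNAfold 2.7.2. The rest was computed in Python 3.11.15 with scipy 1.17.1, pandas 2.3.3 and numpy 2.4.6, and drawn with matplotlib 3.10.9.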

Additional observations from a re-analysis of the deposited data

How the results depend on the processing

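Of 73 alternative values for 16 results, 52 moved by less than the spread between libraries or the counting interval, or, for numbers of genes, by less than 1.5 times. The 52 include values that could not move further. Leaving out 1 of 2 libraries always stays within their SD. The unstranded log2 ratios of Mir378b, Mir378c and Mir378d rest on the same counts as the main ones. The number 52 is therefore no measure of stability. In the unstranded column the share of Mir378a fell to 0% of all counts and 0% of family counts, where Mir378a had no counts and its unstranded log2 ratio therefore no value. Mir378b, Mir378c and Mir378d then held 2.99%, 68.8% and 28.2% of family counts, and Mir378c and Mir378d 0.00806% and 0.00330% of all counts. Over all reads of the libraries, Mir378a held 2.84%, Mir378b 0.000106%, Mir378c 0.00240% and Mir378d 0.000983%. With Mir122 left out of the totals Mir378a held 8.04%. The log2 ratio of Mir378a was 0.24 with DESeq2 size factors, 0.094 with totals without Mir122 and -0.25 with library totals. Under library totals Mir378c stood at -0.51 and Mir378d at -0.53. Genes past the fold numbered 45 of 261 at 2-fold, 98 at 1.5-fold and 14 at 4-fold. They numbered 78 of 378 when a mean of 10 counts sufficed and 23 of 145 when 1000 were needed. No paired analysis was possible because there is 1 group. Depth limits Mir378b and Gm25301 most, with at most 14 counts in a library.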
